A study of Homo sapiens with 9 samples.

Results

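The interferon response genes IRF1, IRF7, IRF9, RIGI, IFIH1, IFIT3, IFIT2, XAF1 and ISG15 were followed across cells of the human promyelocytic leukaemia line HL-60 clone 15. The 9 genes are a list of names that was drawn up with earlier results of these data known, so counts among them describe the list and are no independent evidence. All 9 had a named probe set, 1 each, among the 14778 genes tested. The arrays were Affymetrix whole-transcript arrays, whose log2 signals had been background-corrected, normalised across arrays and summarised per probe set by the authors (RMA). The 9 arrays formed 3 groups of 3 arrays, which the design text calls biological replicates. In the first group, cells transduced with a lentiviral RhoH construct had received 4-OHT (4-hydroxytamoxifen, the active metabolite of tamoxifen), and these are called induced RhoH cells. In the second, the same kind of cells had received no 4-OHT (uninduced RhoH cells). In the third, cells transduced with a GFP construct had received 4-OHT (GFP cells). The dose was 100 nM where 4-OHT was given, and cells of all groups carried a construct of the 4-OHT-inducible lentiviral kind. No GFP cells without 4-OHT were among the arrays, so an effect of 4-OHT, leak of the construct and a difference between the transduced populations cannot be told apart. In RNA from whole cultures, fewer cells of a type and less RNA per cell cannot be told apart either.

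Cells detect viral RNA with cytosolic sensors such as RIG-I (RIGI) and MDA5 (IFIH1), which signal through MAVS and the kinase TBK1 to IRF3 and IRF7, and these factors switch on interferon genes. Secreted interferon then acts through its receptors, JAK kinases and STAT proteins. Complexes that contain IRF9 bind interferon-stimulated response elements (ISRE), and gamma-activated sites (GAS) serve the response to interferon gamma. In myeloid cells IRF1 is induced by interferon gamma through such a site, and also by NF-kB, and it binds ISRE-like sequences in antiviral and antigen-presentation genes.

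Promoter windows are shown for 5 of the genes, because they span the 3 kinds of motif found among the members and include ISG15, whose induced RhoH arrays overlapped both other groups. RefSeq (assembly GRCh38.p14) gave windows of 250 bases before to 50 bases after a transcription start for 7 of the 9 genes, 9 windows in all; IFIT2 and IRF7 had none in the table used. The sequences run 5′ to 3′ on the strand of the gene, and the capitals mark the letters of a motif. The windows lie at chr5:132490724-132491023 (minus strand, IRF1), chr9:32526147-32526446 (minus strand, RIGI), chr2:162318635-162318934 (minus strand, IFIH1), chr10:89332279-89332578 (plus strand, the second of 2 starts of IFIT3) and chr1:1013247-1013546 (plus strand, ISG15). In the IRF1 window the capitals are a GAS match and then an NF-kB match, and in the RIGI window an NF-kB match. In the IFIH1 window they are a run of 2 overlapping ISRE matches, an NF-kB match and a further ISRE match. In the IFIT3 window they are 2 ISRE matches, and in the ISG15 window 2 overlapping ISRE matches.
IRF1: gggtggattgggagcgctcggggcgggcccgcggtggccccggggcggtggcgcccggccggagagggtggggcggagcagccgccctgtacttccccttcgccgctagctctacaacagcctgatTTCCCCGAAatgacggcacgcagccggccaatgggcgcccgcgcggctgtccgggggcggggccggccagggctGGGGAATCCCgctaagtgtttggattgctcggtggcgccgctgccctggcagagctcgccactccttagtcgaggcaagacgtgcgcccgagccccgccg
RIGI: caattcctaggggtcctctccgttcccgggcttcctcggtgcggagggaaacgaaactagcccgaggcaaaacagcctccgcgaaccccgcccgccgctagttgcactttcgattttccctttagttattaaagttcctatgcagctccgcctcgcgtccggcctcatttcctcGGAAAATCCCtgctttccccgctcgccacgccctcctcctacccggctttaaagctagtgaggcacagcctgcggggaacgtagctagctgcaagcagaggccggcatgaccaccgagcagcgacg
IFIH1: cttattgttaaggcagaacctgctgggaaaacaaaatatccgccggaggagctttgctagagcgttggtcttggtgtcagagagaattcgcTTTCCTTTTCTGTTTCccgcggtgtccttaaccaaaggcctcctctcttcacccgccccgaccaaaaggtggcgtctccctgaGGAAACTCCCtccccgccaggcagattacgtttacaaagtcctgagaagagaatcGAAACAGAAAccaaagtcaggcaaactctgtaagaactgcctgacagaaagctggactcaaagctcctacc
IFIT3: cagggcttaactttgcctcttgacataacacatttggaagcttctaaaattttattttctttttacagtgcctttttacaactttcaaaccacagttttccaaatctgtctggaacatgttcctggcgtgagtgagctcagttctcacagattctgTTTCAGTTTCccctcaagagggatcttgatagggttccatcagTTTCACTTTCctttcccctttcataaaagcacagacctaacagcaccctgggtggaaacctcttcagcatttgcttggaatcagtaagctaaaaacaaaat
ISG15: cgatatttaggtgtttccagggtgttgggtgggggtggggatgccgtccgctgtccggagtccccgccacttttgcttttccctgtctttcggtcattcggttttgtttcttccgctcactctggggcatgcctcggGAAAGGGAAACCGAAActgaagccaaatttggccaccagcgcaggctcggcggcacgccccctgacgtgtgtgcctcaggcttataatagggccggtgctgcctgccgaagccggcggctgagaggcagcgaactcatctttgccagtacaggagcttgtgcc

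The motifs searched on both strands were the ISRE core (GAAA, any 2 bases, GAAA), the GAS letters TTCNNNGAA, the NF-kB consensus by its name, and the oestrogen response element (GGTCA, any 3 bases, TGACC). Of all 35116 RefSeq windows, 3.57% held the ISRE core, 7.66% the GAS letters, 11.3% the NF-kB consensus and 0.057% the oestrogen response element. Of the 9 member windows, 4 held the ISRE core (44.4%), 2 the GAS letters (22.2%) and 4 the NF-kB consensus (44.4%), and 0 the oestrogen response element. Both IFIT3 windows held 2 ISRE matches, at 156 to 147 and 122 to 113 bases before the first start and at 94 to 85 and 51 to 42 bases before the second. IFIH1 held ISRE matches at 159 to 150, 153 to 144 and 21 to 12 bases before its start, and ISG15 at 113 to 104 and 107 to 98. The GAS letters lay 124 to 116 bases before the IRF1 start and 63 to 55 before the IRF9 start. The NF-kB consensus lay 50 to 41 bases before the IRF1 start, 76 to 67 before those of both RIGI and IFIH1, and 103 to 94 before 1 of the 2 starts of XAF1, whose other window held none of these motifs. A match is a match of letters and not a measured site, and the arrays hold no binding data.

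**Figure D1:**
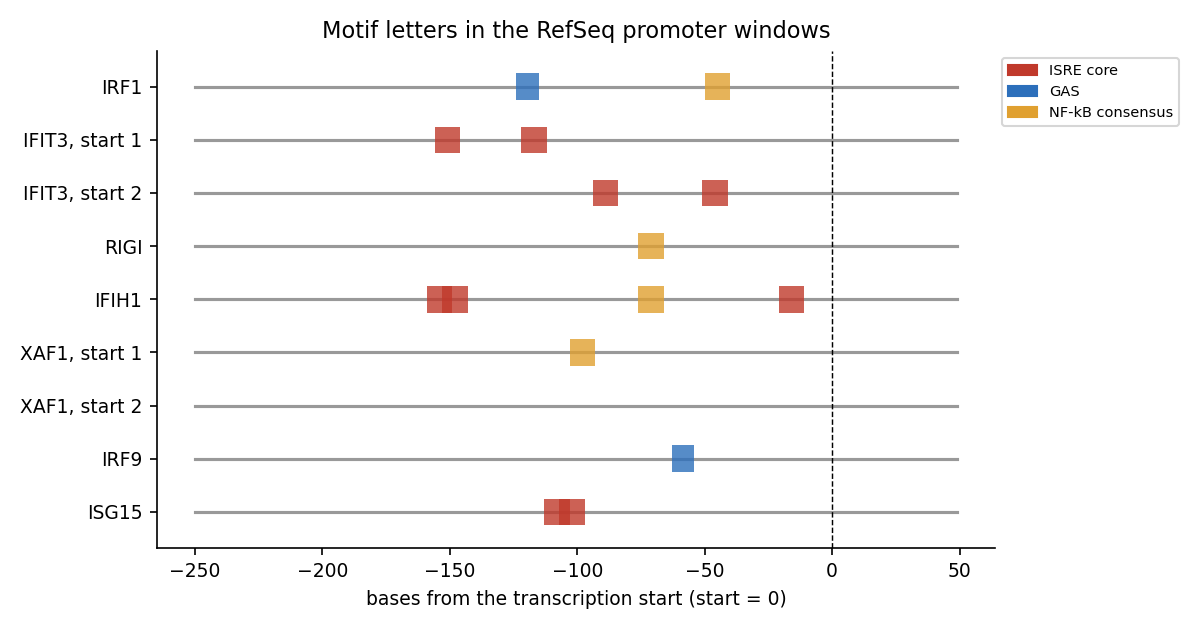
Positions of the motif letters in the 9 RefSeq promoter windows of 7 genes, in bases from the transcription start at 0; boxes are matches on either strand. The ISRE core appears in the windows of IFIT3, IFIH1 and ISG15, the GAS letters in those of IRF1 and IRF9, and the NF-kB consensus in those of IRF1, RIGI, IFIH1 and 1 start of XAF1.

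RHOH, the gene carried by the RhoH construct, was read first as a check of the labels. Its log2 signal was 5.60, 5.73 and 5.45 on the arrays labelled induced RhoH, 5.23, 5.25 and 5.15 on those labelled uninduced RhoH, and 5.90, 5.94 and 5.94 on those labelled GFP. The groups did not overlap, and the GFP arrays were the highest, which goes against the labels for induced RhoH against GFP. Induced RhoH exceeded uninduced RhoH by 0.38 (SE 0.09, limma adjusted p = 0.0451) and differed from GFP by -0.33 (adjusted p = 0.0717), and uninduced RhoH differed from GFP by -0.72 (adjusted p = 0.000420). The first of these calls was lost (adjusted p 0.0781 to 0.171) without any one array other than induced replicate 3, and the second difference passed the threshold without induced replicate 2 (adjusted p = 0.0495). Where the probes of this set lie relative to the coding sequence in the construct is not given in the sources used here, and the construct's transcript was not tested. Every direction below is therefore that of the arrays as labelled.

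The libraries had the markers of the labelled line: the 7 measured of 10 promyelocyte and myeloid markers, MPO, PRTN3 and LYZ among them, averaged at the 96.6th percentile of their arrays or above. Of these 7, MPO, AZU1, PRTN3, CTSG and MYB were called higher in both RhoH groups than in GFP cells. Over all genes, 1.74% were called higher in induced RhoH and 6.01% in uninduced RhoH than in GFP cells. T cell (4 measured), B cell (3), plasmacytoid dendritic cell (2) and fibroblast or epithelial (4) markers had no called member in any comparison. Over all genes, 3.78% were called between induced and uninduced RhoH cells. Between induced RhoH and GFP cells 4.49% were called, and between uninduced RhoH and GFP cells 15.3%, so lists this short can hold no call. The lack of calls does not show that these markers were absent, since KRT18 averaged at the 84.6th percentile and TCF4 at the 69.1st. Array medians lay between 5.43 and 5.55, and within a group the arrays correlated at 0.974 or above over all probe sets. The GFP arrays were the most alike (0.995 to 0.996), while limma gave replicate 1 of both RhoH groups and replicate 3 of induced RhoH array weights of 0.267 to 0.334, against 1.25 to 2.61 for the others. Results that depend on 1 of these arrays are given with and without it.

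Between induced and uninduced RhoH cells, 4 of the 9 genes rose (IRF1, RIGI, IFIH1 and IFIT3) and 0 fell, at a limma adjusted p under 0.05, against 3.78% of all genes called (3.02% higher and 0.751% lower). IRF1 had the largest rise among the 9, of 2.97-fold, and IFIT3 followed at 2.16-fold. Between induced RhoH and GFP cells, 3 of the 9 fell (RIGI, IFIT3 and XAF1) and 0 rose, against 4.49% of all genes called (1.74% higher and 2.75% lower). Between uninduced RhoH and GFP cells, 7 of the 9 fell and 0 rose, IRF7 and ISG15 being the 2 not called, against 15.3% of all genes called (6.01% higher and 9.27% lower). The median log2 fold change of the 9 genes was 0.47, -0.37 and -0.87 in these 3 comparisons, beside -0.0043, 0.0326 and 0.0477 for all genes tested. The 3 comparisons share arrays, so their counts are not independent of each other. Among all genes the called ones in the first comparison were 447 higher and 111 lower, a split that became 588 and 365 when the arrays were quantile-normalised again, under which the counts among the 9 genes were 4 higher and 0 lower. Between uninduced RhoH and GFP cells the split over all genes, 888 higher and 1370 lower, became 2358 and 1968 with array weights and 1298 and 1292 without replicate 1 of both RhoH groups, and under both settings 7 of the 9 genes fell and 0 rose. Between induced RhoH and GFP cells the split of 257 higher and 407 lower became 512 and 478 without the same 2 arrays, where 3 of the 9 fell and 0 rose, and 319 and 296 without induced replicate 1 alone, where 2 fell and 0 rose.

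The arrays of induced and uninduced RhoH cells did not overlap for 7 of the 9 genes, all higher in induced cells, against 14.5% of all genes (8.90% higher and 5.64% lower). Against GFP, induced RhoH arrays did not overlap for 6 genes, all lower (IRF1, IRF9, RIGI, IFIH1, IFIT3 and XAF1), against 22.5% of all genes (11.1% higher and 11.4% lower). Uninduced RhoH arrays did not overlap GFP arrays for any of the 9 genes, 8 lying lower and ISG15 higher, by less than the second decimal, against 37.3% of all genes (19.2% higher and 18.1% lower). For 5 genes (IRF1, RIGI, IFIH1, IFIT3 and XAF1) every uninduced RhoH array lay below every induced RhoH array, and every induced RhoH array below every GFP array, an order found in 3.82% of all genes. With 3 arrays against 3, the two-sided exact permutation test cannot go below p = 0.1, which is its value wherever the groups did not overlap.

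**Figure D2:**
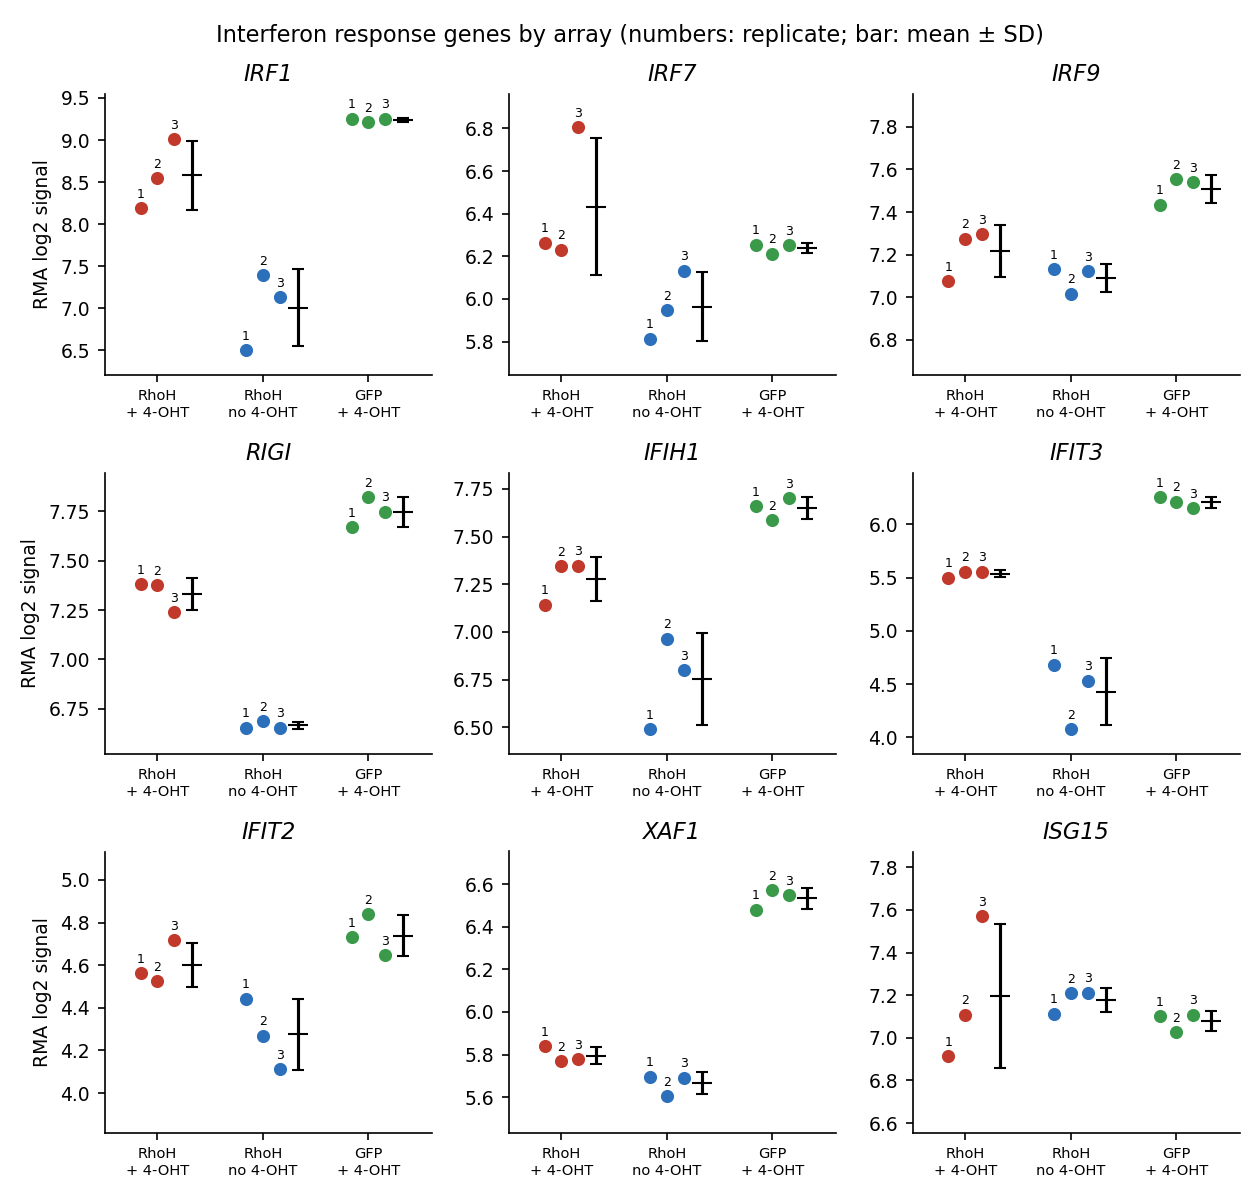
RMA log2 signal of the 9 genes on each array; points are arrays with their replicate number, and bars are the group mean ± SD (n = 3), on a scale of its own for each gene. IRF1, RIGI, IFIH1, IFIT3 and XAF1 are lowest in uninduced RhoH, intermediate in induced RhoH and highest in GFP cells, while the induced RhoH arrays of ISG15 span both other groups.

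Among the interferon regulatory factors, IRF1, a transcription factor that binds ISRE-like sequences, varied most. Its log2 signal was 8.19, 8.55 and 9.01 in induced RhoH cells, 6.50, 7.40 and 7.13 in uninduced RhoH cells, and 9.25, 9.21 and 9.25 in GFP cells (probe set 16999776, chromosome 5). The 3 groups did not overlap, the GFP arrays lay within 0.04 of each other, and the induced and uninduced RhoH arrays spread over 0.82 and 0.89. IRF1 averaged 8.58 ± 0.41 in induced RhoH cells and 7.01 ± 0.46 in uninduced RhoH cells (SD, n = 3 each), a log2 fold change of 1.57 (SE 0.24, limma adjusted p = 0.00551). This SE uses a spread shared by all 9 arrays, the tighter GFP arrays included. Against GFP cells, at 9.24 ± 0.02, the difference of induced RhoH cells was -0.66 and did not pass the test (adjusted p = 0.191), and that of uninduced RhoH cells was -2.23, or 4.69-fold lower (adjusted p = 0.000147). The difference of induced RhoH from GFP did pass when arrays were weighted by their quality (adjusted p = 0.0164). Without uninduced replicate 1, the lowest array, the rise in induced RhoH cells was 1.32 (adjusted p = 0.0128).

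IRF7, which drives interferon alpha genes after sensor signalling, had log2 signals of 6.26, 6.23 and 6.81 in induced RhoH cells, 5.81, 5.95 and 6.13 in uninduced RhoH cells, and 6.25, 6.21 and 6.25 in GFP cells. Its induced RhoH arrays lay above the uninduced ones and overlapped the GFP ones, with replicate 3 the highest. None of its 3 differences passed the test: 0.47 for induced minus uninduced RhoH (SE 0.15, limma adjusted p = 0.147), 0.19 for induced RhoH minus GFP (adjusted p = 0.580) and -0.28 for uninduced RhoH minus GFP (adjusted p = 0.289). Without induced replicate 3 the first of these was 0.28 (adjusted p = 0.183). IRF9, a DNA-binding factor of the response to interferon alpha and beta, had log2 signals of 7.08, 7.27 and 7.30 in induced RhoH cells, 7.13, 7.02 and 7.12 in uninduced RhoH cells, and 7.43, 7.55 and 7.54 in GFP cells. The RhoH groups overlapped, and both lay below the GFP arrays. The difference between them was 0.13 (SE 0.09, adjusted p = 0.645), and that of induced RhoH from GFP -0.29 (adjusted p = 0.116). IRF9 fell by 0.42 in uninduced RhoH against GFP cells (adjusted p = 0.0102), a call lost without GFP replicate 2 (adjusted p = 0.0518) or 3 (0.0502).

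The 2 RNA sensors moved alike in direction. RIGI, which binds short RNA with a 5′ triphosphate, had log2 signals of 7.38, 7.38 and 7.24 in induced RhoH cells, 6.65, 6.69 and 6.66 in uninduced RhoH cells, and 7.67, 7.82 and 7.75 in GFP cells. The groups did not overlap, and the largest spread within one was 0.15. RIGI rose by 0.67 in induced against uninduced RhoH cells (1.59-fold, SE 0.08, limma adjusted p = 0.00168). It fell by 0.41 in induced RhoH against GFP cells (adjusted p = 0.0192) and fell by 1.08 in uninduced RhoH against GFP cells (2.11-fold, adjusted p = 1.47e-05). The call against GFP in induced RhoH cells was lost without any one GFP array (adjusted p 0.0515 to 0.104) and after a second quantile normalisation (0.0575).

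IFIH1, the sensor MDA5 that binds long double-stranded RNA, had log2 signals of 7.14, 7.34 and 7.35 in induced RhoH cells, 6.49, 6.96 and 6.80 in uninduced RhoH cells, and 7.66, 7.59 and 7.70 in GFP cells. The groups kept the order seen for RIGI with no overlap, and the uninduced RhoH arrays were the most spread. IFIH1 rose by 0.53 in induced against uninduced RhoH cells (1.44-fold, SE 0.12, limma adjusted p = 0.0449), close to the threshold. That call was lost (adjusted p 0.0807 to 0.118) without any one array other than uninduced replicate 2 or induced replicate 1. It was also lost when all probe sets were tested (0.117) or only the 6 arrays compared were fitted (0.178). Its difference from GFP cells was -0.37 in induced RhoH (adjusted p = 0.150, or 0.0483 without uninduced replicate 1) and -0.90 in uninduced RhoH (adjusted p = 0.000742), and the last call held with each array left out.

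Among the effectors, IFIT3, which joins the IFIT complex that binds viral RNA ends, had log2 signals of 5.50, 5.56 and 5.56 in induced RhoH cells, 4.68, 4.08 and 4.53 in uninduced RhoH cells, and 6.26, 6.21 and 6.15 in GFP cells. The induced RhoH and GFP arrays were tight and apart, and every uninduced RhoH array lay below all others. Replicates 2 and 3 of induced RhoH had the same summarised value (5.5576), so the spread of that group may be understated. IFIT3 averaged 5.54 ± 0.03 in induced RhoH cells and 4.43 ± 0.32 in uninduced RhoH cells (SD, n = 3 each), a rise of 1.11 (SE 0.14, limma adjusted p = 0.00183). It fell by 1.78 in uninduced RhoH against GFP cells (3.43-fold, adjusted p = 1.74e-05) and fell by 0.67 in induced RhoH against GFP cells (adjusted p = 0.0230). The last call was lost without any one induced RhoH or GFP array (adjusted p 0.0550 to 0.102) and when all probe sets were tested (0.0572).

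IFIT2, the neighbour of IFIT3 on chromosome 10 and a partner in the same complex, had log2 signals of 4.56, 4.53 and 4.72 in induced RhoH cells, 4.44, 4.27 and 4.11 in uninduced RhoH cells, and 4.73, 4.84 and 4.65 in GFP cells. Uninduced RhoH arrays were the lowest, and the induced RhoH and GFP arrays overlapped. Low signals on such arrays are compressed by background. The rise of 0.33 in induced against uninduced RhoH cells did not pass (SE 0.11, limma adjusted p = 0.156), nor did the difference of -0.14 between induced RhoH and GFP cells (adjusted p = 0.578). IFIT2 fell by 0.46 in uninduced RhoH against GFP cells (adjusted p = 0.0144), and this call was lost without uninduced replicate 3 (0.0599) and without GFP replicate 1 (0.0521) or 2 (0.0722).

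XAF1, an interferon-induced antagonist of the apoptosis inhibitor XIAP, had log2 signals of 5.84, 5.77 and 5.78 in induced RhoH cells, 5.70, 5.60 and 5.69 in uninduced RhoH cells, and 6.48, 6.57 and 6.55 in GFP cells. Both RhoH groups lay well below GFP and close to each other. XAF1 fell by 0.74 in induced RhoH against GFP cells (1.67-fold, SE 0.08, limma adjusted p = 0.000508) and fell by 0.87 in uninduced RhoH against GFP cells (1.83-fold, adjusted p = 4.07e-05). The RhoH groups differed by 0.13 (adjusted p = 0.527). Of the 3 called genes in the comparison of induced RhoH with GFP, XAF1 alone was called with each array left out in turn.

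ISG15, a ubiquitin-like protein that is conjugated to other proteins after interferon, had log2 signals of 6.91, 7.11 and 7.57 in induced RhoH cells, 7.11, 7.21 and 7.21 in uninduced RhoH cells, and 7.10, 7.03 and 7.11 in GFP cells. The induced RhoH arrays spanned the range of both other groups. None of its differences passed the test: 0.02 between induced and uninduced RhoH (SE 0.15, limma adjusted p = 0.981), 0.12 between induced RhoH and GFP (adjusted p = 0.737) and 0.10 between uninduced RhoH and GFP (adjusted p = 0.710). Without induced replicate 3, the first was -0.17 and the second -0.07, so both changed sign without that array. The first also changed sign without uninduced replicate 1. Its window holds 2 overlapping ISRE matches, as the IFIT3 and IFIH1 windows hold ISRE matches.

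**Figure D3:**
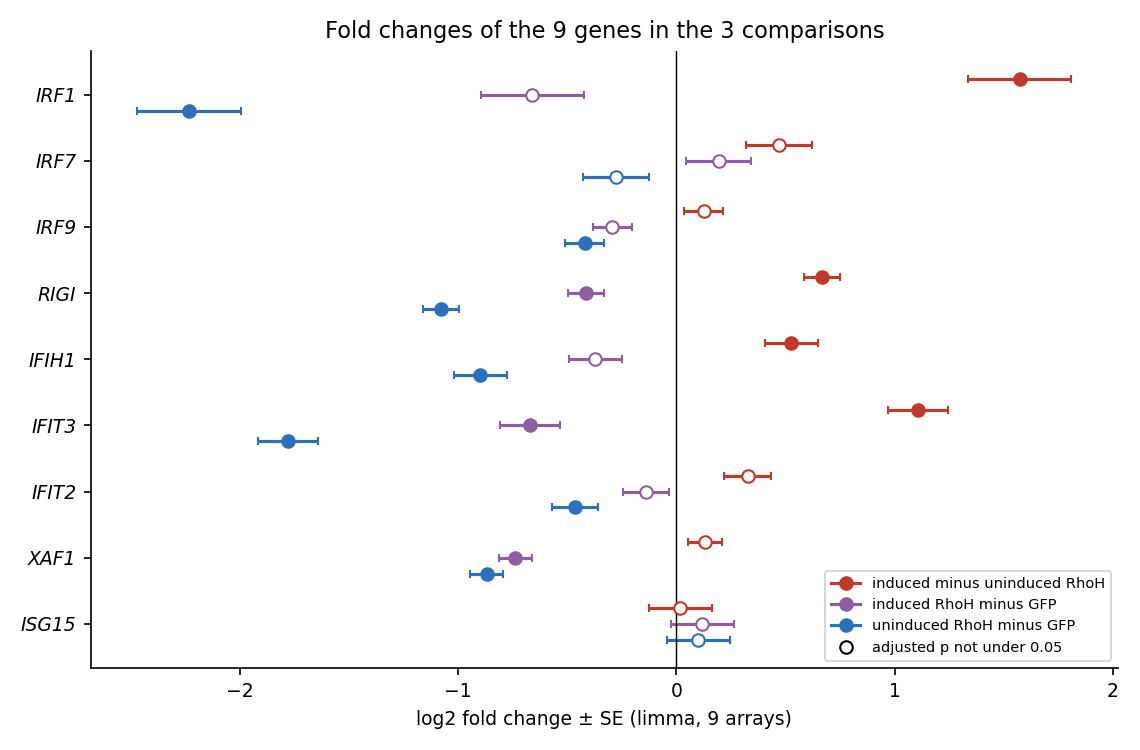
log2 fold changes of the 9 genes with the SE of the limma fit over 9 arrays, for the comparisons of induced with uninduced RhoH (red), of induced RhoH with GFP (purple) and of uninduced RhoH with GFP (blue); filled points have an adjusted p under 0.05 and open points do not. IRF1 has the largest rise in induced against uninduced RhoH cells (1.57) and the largest deficit of uninduced RhoH against GFP (-2.23), and the 3 ISG15 points lie near 0.

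From high to low, the log2 fold changes of induced minus uninduced RhoH were those of IRF1 (1.57), IFIT3 (1.11), RIGI (0.67), IFIH1 (0.53), IRF7 (0.47), IFIT2 (0.33), XAF1 (0.13), IRF9 (0.13) and ISG15 (0.02). The SEs ran from 0.08 to 0.24, and neighbours in this order from RIGI to IFIT2 and from XAF1 to ISG15 were closer to each other than the sum of their SEs. IFIT3 and IFIT2, neighbours in the genome, were apart in this order (1.11 and 0.33), as were the regulatory factors IRF1 and IRF9 (1.57 and 0.13). Signals of IFIT2 on all arrays (4.11 to 4.84) and of IFIT3 in uninduced RhoH cells (4.08 to 4.68) were low, where background compresses differences. Differences between genes were not tested.

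The wider interferon pathway was read from 9 lists by role with 151 genes, of which 88 were measured, the 9 genes included. Between induced and uninduced RhoH cells 20 of the 88 rose and 1 fell, beside 3.02% higher and 0.751% lower among all genes. The median log2 fold change of the 88 was 0.22, beside -0.0043 for all genes. The counts by role below stand beside the same shares, and none of them was tested. Among the 79 that are not members, 16 rose and 1 fell, with a median of 0.21. Of the 2 interferon receptors measured, IFNGR2 (interferon gamma receptor) rose by 0.39 (limma adjusted p = 0.0401), and of 5 JAK and STAT genes the kinase JAK1 rose by 0.53 (0.0298). Of 8 interferon regulatory factors, IRF1 rose as above and IRF2, which binds the same sequences and mostly represses, rose by 0.72 (0.00360). Of 12 nucleic acid sensors 2 rose, RIGI and IFIH1 themselves. Of 10 adaptors and kinases, MYD88, the Toll-like receptor adaptor, rose by 0.67 (0.0281) and TRAF3 fell by 0.43 (0.0491). The calls of IFNGR2, JAK1, MYD88 and TRAF3 did not hold with 1 array left out. IFNGR2 was lost without any one array (adjusted p 0.0548 to 0.121) and JAK1 without any but induced replicate 1 (0.0561 to 0.0752). MYD88 was lost without any but the replicate 2 array of either RhoH group (0.0575 to 0.0944), and TRAF3 without any but uninduced replicate 1 or induced replicate 2 (0.0901 to 0.181).

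Of 34 interferon-stimulated effectors measured, 10 rose in induced against uninduced RhoH cells and 0 fell. The 6 with the largest fold change were SAMD9L, BST2, IFIT3, SP110, UBE2L6 and DTX3L. SAMD9L, an antiviral growth inhibitor, had log2 signals of 8.30, 8.49 and 8.49 in induced RhoH cells, 6.61, 6.90 and 7.24 in uninduced RhoH cells, and 8.74, 8.86 and 8.86 in GFP cells, a rise of 1.51 in induced against uninduced RhoH cells (limma adjusted p = 0.000334). BST2, or tetherin, which holds budding virus on the cell, had 6.92, 7.08 and 7.47 in induced RhoH cells, 5.27, 5.81 and 6.04 in uninduced RhoH cells, and 7.54, 7.51 and 7.53 in GFP cells, a rise of 1.45 (0.00276). The groups did not overlap for either gene, in the order seen for IRF1. SP110, a nuclear body protein, rose by 0.96 (0.000402), UBE2L6, the conjugating enzyme for ISG15, by 0.92 (0.0146), and DTX3L, a ubiquitin ligase, by 0.89 (0.000347). The UBE2L6 call was lost without uninduced replicate 3 (0.0558). The ISG15 difference in the same comparison did not pass.

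Of 11 measured interferon gamma and IRF1 targets, 2 rose in induced against uninduced RhoH cells and 0 fell, with a median of 0.03. GBP3, an interferon-induced GTPase, had log2 signals of 6.26, 6.50 and 6.96 in induced RhoH cells, 5.45, 4.51 and 4.71 in uninduced RhoH cells, and 7.53, 7.72 and 7.70 in GFP cells, a rise of 1.69 (limma adjusted p = 0.00368). TAPBP, the tapasin chaperone of peptide loading, rose by 0.60 (0.00349). Of 6 measured negative regulators, TRIM38 rose by 0.60 (0.0300), a call lost (0.0513 to 0.0874) without uninduced replicate 2, induced replicate 1 or 2, or any one GFP array. None of the 10 interferon ligand genes of the lists was among the genes tested, so their expression was not read.

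**Figure D4:**
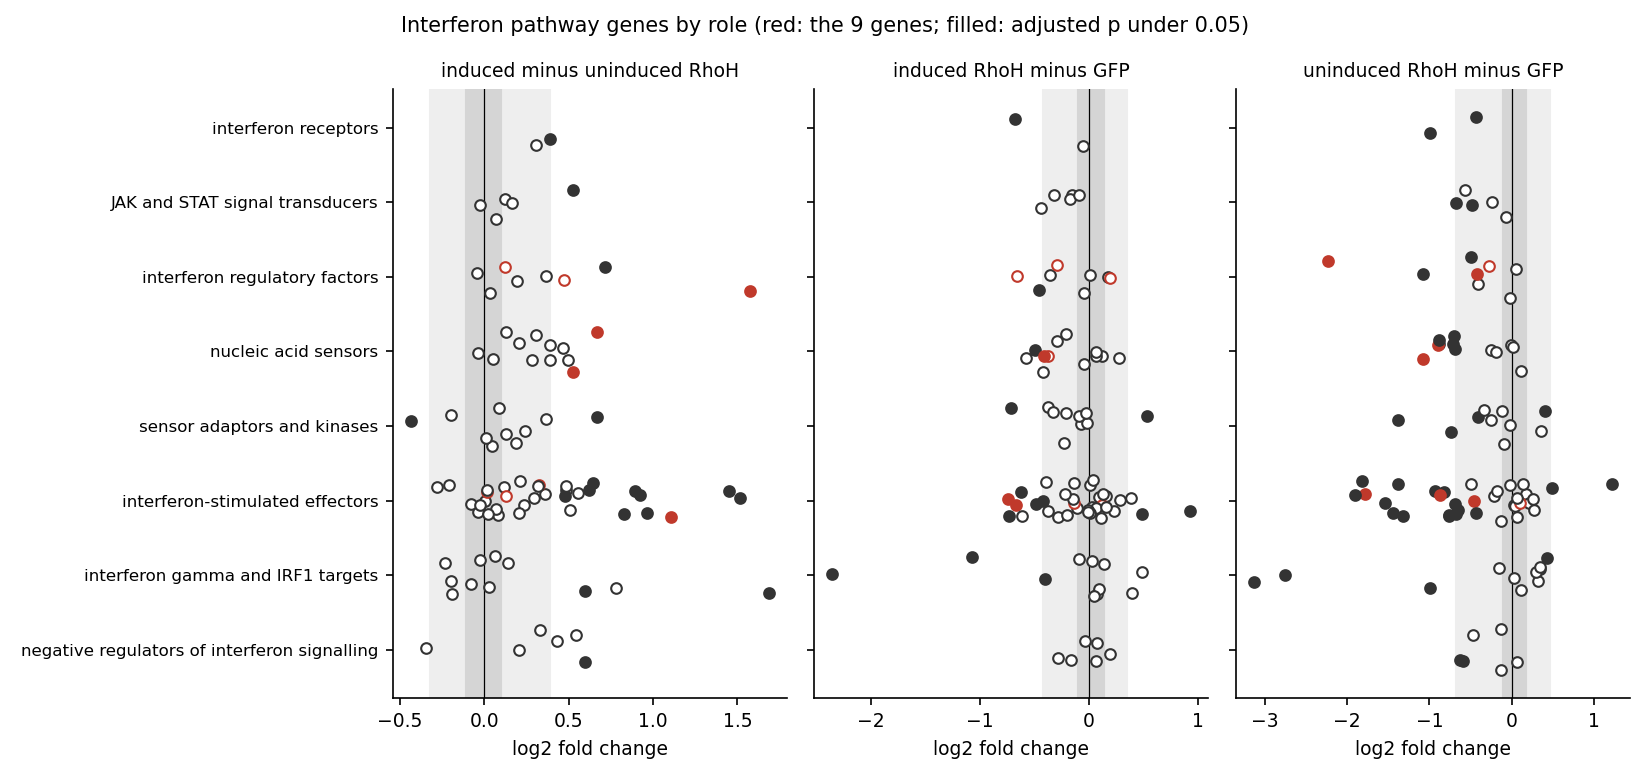
log2 fold changes of the measured interferon pathway genes by role in the 3 comparisons; red points are the 9 genes, filled points have a limma adjusted p under 0.05, and the dark and light bands hold the middle 50% and 90% of all tested genes. Called genes lie mostly right of 0 in induced minus uninduced RhoH (20 of 21). They lie mostly left of 0 in induced RhoH minus GFP (14 of 17) and in uninduced RhoH minus GFP (40 of 44). Over all genes, the called ones lean to the same sides in the main test (447 of 558, 407 of 664 and 1370 of 2258).

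Between induced RhoH and GFP cells, 14 of the 88 pathway genes fell and 3 rose, beside 2.75% lower and 1.74% higher among all genes. Their median was -0.09, beside 0.0326 for all genes. Among the 79 that are not members, 11 fell and 3 rose, with a median of -0.05. GBP4, a GTPase of the GBP3 family, had log2 signals of 5.19, 4.71 and 4.81 in induced RhoH cells, 4.75, 3.83 and 3.79 in uninduced RhoH cells, and 7.36, 7.23 and 7.19 in GFP cells. It fell by 2.35 in induced RhoH against GFP cells (5.12-fold, limma adjusted p = 0.000417), the largest difference among the 88. SP100, a nuclear body protein, fell by 0.73 (0.00222) and IFIT5, of the IFIT family, fell by 0.62 (0.00723), and both calls held, like that of GBP4, with each array left out. The other falls among effectors and targets were GBP3 (-1.07, adjusted p = 0.0328), SP110 (-0.48, 0.0190), DTX3L (-0.42, 0.0223) and TAPBP (-0.40, 0.0242), besides IFIT3 and XAF1. Over the 11 measured interferon gamma and IRF1 targets the difference was positive for 7 and negative for 4, with a median of 0.05. Over the 34 effectors it was positive for 16 and negative for 18, with a median of -0.0075. Further falls were those of MYD88 (-0.71, 0.0194), IFNGR1 (-0.68, 0.0136), the sensor-associated helicase DDX60 (-0.49, 0.0411) and IRF3, the factor activated by TBK1 (-0.46, 0.0471), besides RIGI. The 3 that rose were HERC5, the ligase that attaches ISG15 (0.93, adjusted p = 0.0471), STING1, the adaptor of DNA sensing (0.54, 0.0222), and IFITM2, which blocks virus entry (0.49, 0.0141).

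The calls of these smaller differences between induced RhoH and GFP cells depended on the arrays fitted, as did those over all genes. Without any one GFP array 4 pathway genes were called, against 17 with all arrays. Calls over all genes numbered 302, 279 and 285 without GFP replicate 1, 2 or 3, against 664 with all arrays. Without 1 GFP array, the adjusted p of IFNGR1 was 0.0557 to 0.0699 and that of IFITM2 0.0610 to 0.0776. Lost without any one GFP array or without induced replicate 1 or 3 was STING1 (0.0543 to 0.113), and without any one GFP array or induced replicate 1 or 2 was MYD88 (0.0525 to 0.0892). DTX3L was lost without any one GFP array or induced replicate 1 (0.0542 to 0.102), SP110 without any one GFP array or induced replicate 2 (0.0541 to 0.0956), and TAPBP without any one GFP array or induced replicate 2 or 3 (0.0510 to 0.114). GBP3 was lost without any one GFP array, uninduced replicate 3, or induced replicate 1 or 2 (0.0519 to 0.140). DDX60 was lost without any one array but uninduced replicate 1 (0.0531 to 0.184), and HERC5 without any but replicate 1 of either RhoH group (0.0647 to 0.172). IRF3 was lost without uninduced replicate 3, induced replicate 1 or 2, or any one GFP array (0.0781 to 0.202).

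Between uninduced RhoH and GFP cells, 40 of the 88 pathway genes fell and 4 rose, beside 9.27% lower and 6.01% higher among all genes, the largest background of the 3 comparisons. Their median was -0.37, beside 0.0477 for all genes. Among the 79 that are not members, 33 fell and 4 rose, with a median of -0.25. Both measured receptors were called: IFNGR1 fell by 0.99 (limma adjusted p = 0.000440), IFNGR2 fell by 0.44 (0.00748), JAK1 fell by 0.68 (0.00242) and TYK2, a kinase of the interferon alpha receptor, fell by 0.48 (0.0273). IRF2 had log2 signals of 9.57, 9.35 and 9.68 in induced RhoH cells, 8.76, 8.92 and 8.77 in uninduced RhoH cells, and 9.84, 9.94 and 9.89 in GFP cells, and fell by 1.07 in uninduced RhoH against GFP cells (6.36e-05). IRF3 fell by 0.49 (0.0130). Of 12 nucleic acid sensors, 7 fell and 0 rose. Beside RIGI and IFIH1, the largest falls were those of DDX60 (-0.88, 0.000535), TLR8, a receptor for single-stranded RNA (-0.88, 0.0129), TLR3, a receptor for double-stranded RNA (-0.71, 0.00448) and CGAS, the cytosolic DNA sensor (-0.71, 0.00205). Among adaptors, MYD88 fell by 1.38 (0.000113), TANK fell by 0.74 (0.00142) and TBK1 fell by 0.41 (0.0250), while TRAF3 rose by 0.41 (0.0234).

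Of the 34 effectors, 17 fell and 2 rose in uninduced RhoH against GFP cells. The 6 largest falls were those of SAMD9L (-1.90, limma adjusted p = 1.44e-05), BST2 (-1.82, 0.000136), IFIT3, UBE2L6 (-1.54, 0.000175), SP110 (-1.45, 6.42e-06) and SP100 (-1.38, 9.14e-06). HERC5 ran the other way, with log2 signals of 6.38, 6.95 and 7.21 in induced RhoH cells, 6.67, 7.36 and 7.34 in uninduced RhoH cells, and 5.86, 5.89 and 5.98 in GFP cells, and it rose by 1.21 in uninduced RhoH against GFP cells (0.00464). IFITM2 rose by 0.48 (0.00466). Of 11 measured interferon gamma and IRF1 targets, 3 fell and 1 rose. Their log2 fold changes were positive for 7 and negative for 4, with a median of 0.11, beside 0.0477 for all genes. GBP4 fell by 3.13 (8.77-fold, 1.37e-05), GBP3 fell by 2.76 (6.77-fold, 3.71e-05) and TAPBP fell by 1.00 (2.85e-05). SECTM1, a secreted and membrane protein, rose by 0.42 (0.0214). Low signals, such as those of GBP4 and GBP3 in uninduced RhoH cells, are compressed by background. Of the negative regulators, TRIM38 fell by 0.63 (0.00757) and TRAFD1 fell by 0.59 (0.00397).

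With 1 array left out, 6 of these named calls between uninduced RhoH and GFP cells were lost beside those of IRF9 and IFIT2. TYK2 was lost without uninduced replicate 1 or any one GFP array (limma adjusted p 0.0806 to 0.0929), IRF3 without GFP replicate 2 or 3 (0.0527 to 0.0655), and TLR8 without uninduced replicate 1 or GFP replicate 1 or 2 (0.0514 to 0.0587). TBK1 was lost without uninduced replicate 1 or 3 or any one GFP array (0.0596 to 0.0994). TRAF3 (0.0602 to 0.0992) and SECTM1 (0.0523 to 0.0864) were lost without uninduced replicate 2 or 3 or any one GFP array. The counts of pathway genes called in this comparison lay between 34 and 47 with 1 array left out, against 44 with all arrays.

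Pathway genes with and without the motif letters in a window were counted apart. RefSeq gave 91 windows for 69 of the 88 genes, of which 39 windows (42.9%) held the ISRE core and 17 (18.7%) the GAS letters. In induced against uninduced RhoH cells, 9 of the 36 genes with the ISRE core in a window rose and 0 fell, and 9 of the 33 without it rose and 1 fell. In uninduced RhoH against GFP cells, 17 of the 36 with it fell and 2 rose, and 17 of the 33 without it fell and 1 rose. Of the 16 genes with the GAS letters, 6 rose in induced against uninduced RhoH cells and 11 fell in uninduced RhoH against GFP cells, beside 12 and 23 of the 53 without them. Over all genes, 3.02% rose and 0.751% fell in the first of these comparisons, and 6.01% rose and 9.27% fell in the second. The split by motif was not made over all genes tested. None of these shares was tested, and a window without a match says only that the letters are not in those bases.

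The genes whose profiles over the 9 arrays lay nearest to those of IRF1, IFIT3 and RIGI were found among all 14778 by the root mean square difference of log2 signals, after each gene's own mean was removed. For IRF1, which varied by 1.04 (SD over the 9 arrays), the 5 nearest were DSTNP2 (0.190), EPOP (0.203), GPR34 (0.213), BST2 (0.222) and FURIN (0.222). For IFIT3, with an SD of 0.79, they were FFAR4 (0.136), SIGLEC12 (0.196), KATNAL2 (0.196), IPCEF1 (0.197) and C5 (0.200). For RIGI, with an SD of 0.475, they were TAPBP (0.0700), SP3 (0.0766), GALNT1 (0.0794), CAT (0.0806) and LINC01160 (0.0816). BST2 and TAPBP are in the pathway lists, and the other 13 are not. The nearest member to IRF1 was IFIT3 (ranked 99th), to IFIT3 it was RIGI (118th), and to RIGI it was IFIH1 (124th), so other genes had closer profiles. Signals were not scaled to a gene's SD, so genes that varied by unlike amounts lay apart, and IRF1 ranked 12617th in nearness to RIGI. The 9 arrays share 3 groups, and a near profile is mostly a like pattern and a like size of the differences between group means.

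**Figure D5:**
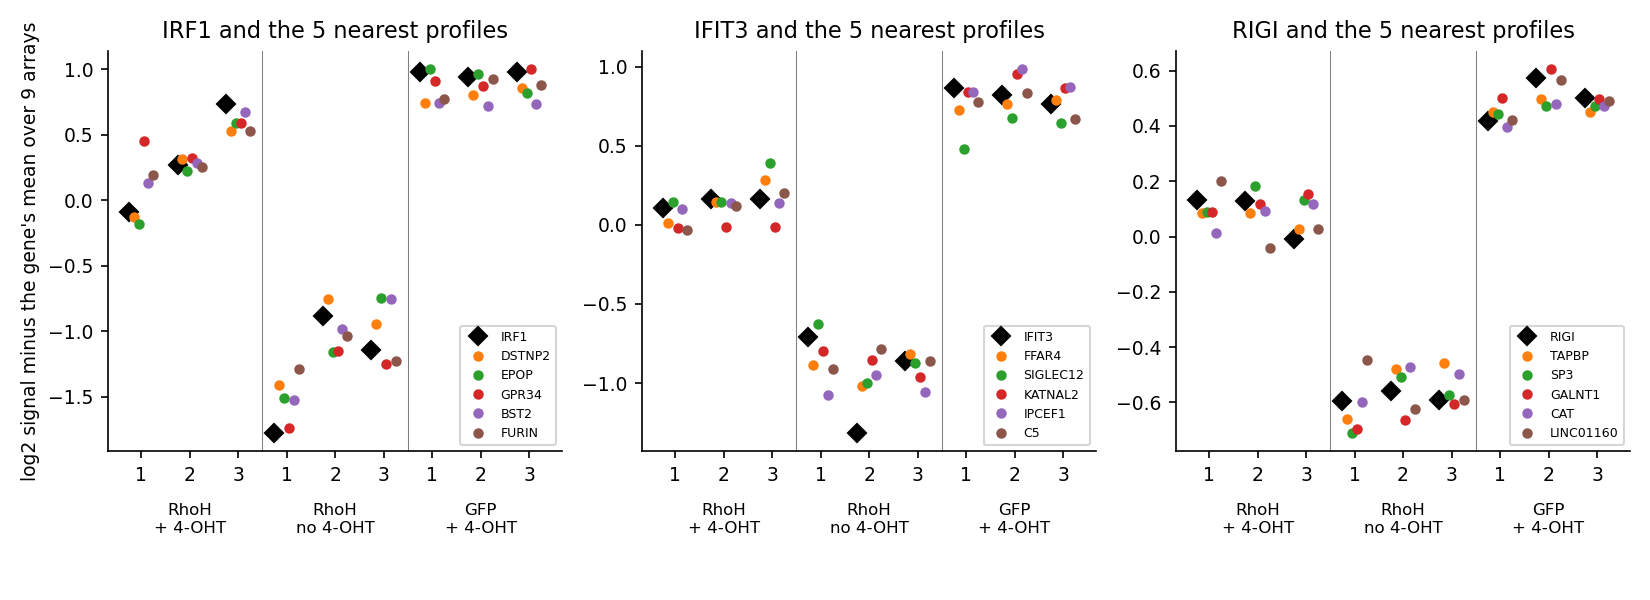
log2 signal minus the gene's mean over the 9 arrays for IRF1, IFIT3 and RIGI (black diamonds) and the 5 genes with the nearest profile to each (coloured points), by group and replicate. In each panel the points are lowest in uninduced RhoH and highest in GFP cells, with root mean square distances from 0.0700 (TAPBP to RIGI) to 0.222 (FURIN to IRF1).

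Among the markers of monocytes and macrophages, CD14, CD68, CD86 and CCR2 had group means in the order of the 5 ordered genes, and the other 4 measured did not. The 8 measured of 12 such markers had a summed linear signal of 1383 to 1856 in induced RhoH cells, 811 to 891 in uninduced RhoH cells and 2017 to 2125 in GFP cells. CD68 and CD86 rose in induced against uninduced RhoH cells, CD14 fell in induced RhoH against GFP cells, and CD14, CD68 and CD86 all fell in uninduced RhoH against GFP cells. Over all genes, 3.02% rose in the first of these comparisons, 2.75% fell in the second and 9.27% fell in the third. CD68 averaged 10.13, 9.02 and 10.43 in induced RhoH, uninduced RhoH and GFP cells, and CD86 averaged 7.67, 5.60 and 8.29. CCR2 averaged 5.74, 5.71 and 5.75 in the same groups and was not called. CSF1R averaged 6.97, 6.63 and 6.95, and MARCO, at 5.84, 5.85 and 5.64, was lowest in GFP cells, as were CD163 and VCAN. Over the 8 markers, induced RhoH minus GFP was positive for 4 and negative for 4, with a median of 0.0041. No marker is at 0 on such arrays, and the sum is dominated by the brightest probe sets. The 7 promyelocyte and myeloid markers summed to 36896 to 39493 in induced RhoH cells, 43418 to 44003 in uninduced RhoH cells and 24582 to 24860 in GFP cells, the reverse order. The part of either list in the interferon gene differences was not tested.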

How the data were processed

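RNA of 9 samples was hybridised to Affymetrix whole-transcript arrays, from HL-60 clone 15 cells, 3 in each of the 3 groups, which were taken from the sample titles. The authors deposited log2 values for 43550 probe sets, made with Affymetrix Power Tools and RMA, per the submitters' processing notes, which also name limma. Tool versions and the genome build are not given in the sources used here. The RMA method corrects background, quantile-normalises across arrays and summarises probes, so low signals are compressed. Probe sets differ in response, so the summed signals and percentiles given for marker lists are rough, and no other level is set against another gene's. The platform annotation gave 15659 probe sets 1 gene symbol, 0 several and 27891 none. A RefSeq table of GRCh38.p14 held all 15659 Entrez identifiers. For 521 genes with over 1 probe set the one with the highest mean was used, which left 14778 genes.

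The main test was limma 3.58.1 in R 4.3.3, with 3 group means over all 9 arrays, default eBayes (6 residual and 3.86 prior degrees of freedom) and Benjamini-Hochberg adjustment over the 14778 genes. Genes with an adjusted p under 0.05 are called, and adjusted p-values are limma's. The number of arrays limits the precision. All 3 groups share one estimate of the spread for each gene. The GFP arrays, which were the most alike, thus enter the SEs and p-values of induced against uninduced RhoH cells. With only the 6 arrays of that comparison fitted, 190 genes were called, against 558. Single genes also had a two-sided exact permutation test. No set test was run. The genes, the lists, the alternatives and the naming rule were chosen with earlier results of these data known. Named are the 9 genes, RHOH, pathway genes called in a comparison (the 6 with the largest fold change where over 6 of a role were called in 1 direction), and the 5 nearest profiles of 3 genes. GBP and monocyte marker genes are given only where they bear on the 9 genes. Promoter windows came from RefSeq and were searched on both strands. The 19 alternatives were a replicate block, a second quantile normalisation, subtraction of array medians, leaving out the dimmest 25% of genes, all probe sets, the mean of a gene's probe sets, only the 6 arrays compared, array weights, eBayes with trend and robust, each array left out, and replicate 1 of both RhoH groups left out.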

Additional observations from a re-analysis of the deposited data

How the results depend on the processing

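Rises of IRF1, IFIT3 and RIGI in induced against uninduced RhoH cells were called under all 19 alternatives (highest limma adjusted p 0.0466, 0.0234 and 0.0202). So were the falls of IRF1, IFIT3, RIGI, IFIH1 and XAF1 in uninduced RhoH against GFP cells (0.00140, 0.000311, 0.000236, 0.00583 and 0.000597) and the fall of XAF1 in induced RhoH against GFP cells (0.00610). IFIT2 has 18 alternatives, since it was among the dimmest genes left out in the other. The rise of IFIH1 was lost in 9 of 19, with an adjusted p of up to 0.178. The ISG15 difference between induced and uninduced RhoH cells changed sign to -0.0424 after a second quantile normalisation, to -0.0034 with array medians subtracted and to -0.0679 with array weights, and it lay between -0.17 and 0.16 with 1 array left out. Its difference between induced RhoH and GFP cells lay between -0.0682 and 0.26 with 1 array left out. Of the 9 genes, the number called for induced RhoH against GFP cells was 1 to 4 with 1 array left out, and 1 without any GFP array, which enters the shared estimate of the spread.

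Pathway genes called between induced and uninduced RhoH cells numbered 12 when only the 6 arrays compared were fitted and 13 to 17 with 1 array left out, the fewest without uninduced replicate 3, against 21. Between induced RhoH and GFP cells they numbered 9 when all probe sets were tested and 4 to 20 with 1 array left out (10 without induced replicate 1, 4 without any GFP array), against 17. Over all genes the 558 calls between induced and uninduced RhoH cells became 953 after a second quantile normalisation, 950 with array weights, 314 with all probe sets and 190 with 6 arrays. The 664 calls between induced RhoH and GFP cells became 403 and 1176 with all probe sets and array weights, and the 2258 between uninduced RhoH and GFP cells became 4326 with array weights. With 1 array left out these counts were 304 to 666, 279 to 861 and 1450 to 2670. The first was lowest without uninduced replicate 3 and 355 to 371 without any one GFP array. The second was 279 to 302 and the third 1450 to 1556 without any one GFP array, so the shares of all genes called depend on these arrays too. The cause was not tested.

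With the replicate number as a block, the calls among the 9 genes numbered 4, 3 and 7 as without it. Those over all genes numbered 684, 820 and 2558, against 558, 664 and 2258 without it. Same-numbered arrays of the RhoH groups had deviations that correlated at 0.543, 0.369 and 0.0654, and uninduced replicate 3 correlated best with induced replicate 2 (0.395). With same-numbered GFP arrays the correlations were 0.132, 0.153 and -0.0258 for uninduced RhoH and 0.101, 0.154 and 0.0081 for induced RhoH. Whether same-numbered samples were made together is not given in the sources used here, so the main test did not take the numbers as pairs. The block ended the calls of TRAF3 between the RhoH groups (adjusted p = 0.0535) and of DDX60 between induced RhoH and GFP cells (0.0557).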
